A study of Mus musculus with 10 samples.

Results

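The 10 genes described here (Lyz2, Ly6c2, Plac8, Itgax, Cd52, Cd72, Havcr2, Dpep2, Spp1 and Gpnmb) are expressed by monocytes that enter tissue from the blood and by the macrophages they become. They were taken by symbol from 37583 gene rows of RNA-seq counts of mouse left atria, where all 10 were found and all 10 passed the filter on low counts that left 15364 genes for testing, Ly6c2 and Cd72 through the libraries labelled KO alone. Some of them were chosen by their CPM, which was higher in KO than WT, so the comparison of those libraries with WT is given as a description without a test, and the comparison of ibrutinib with vehicle is tested. The study holds 10 libraries of poly(A) RNA from adult mice in 4 groups. CTL is 3 libraries from animals given vehicle, and IBR is 3 libraries from animals given ibrutinib, an inhibitor of Bruton's tyrosine kinase. WT is 2 libraries from untreated wild-type animals, and KO is 2 libraries from animals labelled as having a cardiac knockout of Csk, the kinase that holds Src family kinases inactive. Strain, dose, duration, sex and the Cre line behind the knockout go unstated in the sources used here. Nothing says that the libraries are from separate animals, so a p-value reflects the spread between libraries, which may be technical.

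Classical monocytes leave the bone marrow, circulate with the surface antigen Ly6C and the chemokine receptor Ccr2, and enter injured or inflamed tissue. There they lose Ly6C and become macrophages, which can take on programmes of antigen presentation, inflammation, or lipid handling and scar formation, the last marked in many tissues by Spp1, Gpnmb and Trem2. The healthy heart also has resident macrophages of embryonic origin, which carry Lyve1, Timd4 and Folr2 and renew with little input from the blood. In RNA of whole tissue, fewer cells of a type and less RNA per cell cannot be told apart.

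Csk itself measured 18.3 and 17.8 CPM (gene counts scaled to library size, with trimmed mean of M values factors) in WT35 and WT338, whereas KO26 had 24.7 CPM and KO337 had 35.5 CPM, so whole-gene counts went against the KO label, and directions below are those of the libraries labelled KO. The libraries held 14907331 to 19960947 counts on genes, and a count of 3 equals 0.150 to 0.201 CPM before scaling. All 9 atrial heart muscle genes of a marker list were detected, with a summed level of 80929 to 102443 CPM in CTL and IBR, 79252 and 73475 CPM in WT35 and WT338, 58895 CPM in KO26 and 31569 CPM in KO337. KO26 and KO337 lay further apart than any other 2 libraries of one group (chi-square per gene of 138.2 against 14.7 to 39.3), so each value below is given for both.

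Lyz2 and Ly6c2 each have a close copy in the mouse genome, Lyz1 and Ly6c1, with which reads could be shared. Lyz2 encodes lysozyme M, the bacteriolytic enzyme of myeloid cells, and Lyz1 the lysozyme of Paneth cells in the gut. Their annotated coding sequences, both of 447 bases, are 95.1% identical, and 20.1% of the 50-base windows of Lyz2 also occur in Lyz1. Ly6c2 and Ly6c1 encode GPI-anchored antigens that antibodies to Ly6C both bind, and Ly6c1 is also high in endothelial cells. Their coding sequences of 396 bases are 97.7% identical, with 46.7% of the 50-base windows of Ly6c2 also in Ly6c1, so reads of this pair are the more easily lost or misplaced. The first 90 coding bases of each pair (GENCODE vM21 transcripts, 5′ to 3′, with capitals where the copies differ) show how closely they match.
Lyz2: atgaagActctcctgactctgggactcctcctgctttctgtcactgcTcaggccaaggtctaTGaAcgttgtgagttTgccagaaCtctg
Lyz1: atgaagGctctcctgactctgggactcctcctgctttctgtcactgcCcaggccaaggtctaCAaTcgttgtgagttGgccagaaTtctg
Ly6c2: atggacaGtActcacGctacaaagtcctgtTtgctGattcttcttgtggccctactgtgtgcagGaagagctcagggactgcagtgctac
Ly6c1: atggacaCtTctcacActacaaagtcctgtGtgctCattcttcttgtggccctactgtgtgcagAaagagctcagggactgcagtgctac
Lyz1 lay at 0.242 to 3.71 CPM over the 10 libraries, far under Lyz2. For KO minus WT its difference had the same sign as that of Lyz2 (log2 2.24, SE 0.82, adjusted p = 0.127), and how many of its reads belong to Lyz2 cannot be told from the counts. Ly6c1 stood at 23.4 to 38.8 CPM in every library. It had 28.6 and 33.2 CPM in KO26 and KO337 over 27.0 and 24.4 CPM in WT35 and WT338 (log2 difference 0.27, SE 0.24, adjusted p = 0.505 in edgeR's quasi-likelihood test). Ly6c2 lay at most at 1.45 CPM, on 25 reads in KO26 and 30 in KO337. None of the other 8 libraries reached the minimum of the filter, and for Cd72 1 of 8 did.

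At baseline Lyz2 was the one abundant member. Per kilobase of annotated exon, it averaged 79.9 CPM in CTL, 107 CPM in IBR and 114 CPM in WT. Next in CTL came Cd52, Gpnmb and Spp1 with means of 0.662, 0.614 and 0.534 CPM per kilobase, and these neighbours do not differ beyond their spread, as Spp1 alone ran from 0.207 to 1.14 CPM per kilobase over the 3 libraries. The remaining 6 averaged 0.0221 CPM per kilobase (Itgax) to 0.282 CPM per kilobase (Plac8) in CTL. In KO26 the order began with Lyz2 at 233, Cd52 at 11.6 and Plac8 at 3.35 CPM per kilobase, and in KO337 with Spp1 at 2352, Lyz2 at 1398 and Gpnmb at 212 CPM per kilobase. Annotated exon lengths include rare transcripts, so the order between close neighbours depends on them.

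**Figure D1:**
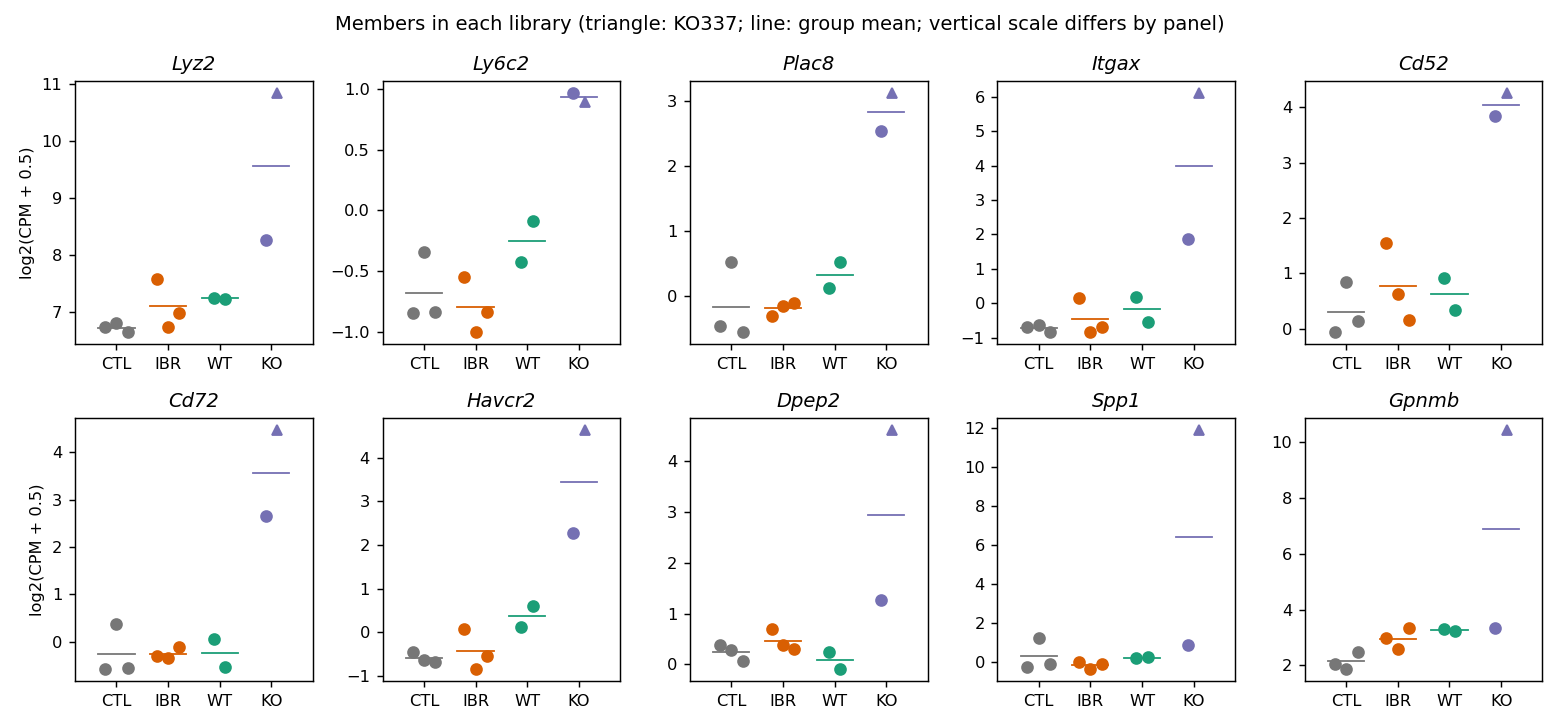
Level of each of the 10 members in each library, as log2(CPM + 0.5) on the vertical axis with a scale of its own per panel, by group on the horizontal axis. Circles are libraries, the triangle is KO337 and lines are group means. Both libraries labelled KO lie above both WT libraries in all panels, KO337 far above KO26 for Spp1 and Gpnmb, and at about the same height for Ly6c2.

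In WT and the libraries labelled KO, every member was higher in both KO26 and KO337 than in WT35 and WT338. Among all 15364 tested genes the same held for 26.3%, and nothing is read from the members' count because this contrast helped to choose them. For the same reason their differences, with a median of 4.33 on the log2 scale beside 0.01 over all tested genes, carry no test. Of all tested genes 2.21% were called (adjusted p under 0.05), 1.31% as higher and 0.898% as lower, 25.7% had an unadjusted p under 0.05 and 50.7% a positive difference. Without KO337 the members' median was 2.24, and without KO26 it was 5.14.

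The monocyte genes Ly6c2, Plac8 and Cd52 differed little between KO26 and KO337. Ly6c2 measured 0.247 CPM in WT35 and 0.440 CPM in WT338, then 1.45 and 1.36 CPM in the KO26 and KO337 libraries (log2 difference 2.03, SE 0.75). Plac8, which encodes a small cysteine-rich protein plentiful in classical monocytes, measured 0.594 and 0.943 CPM in the WT pair, then 5.34 and 8.24 CPM in the KO26 and KO337 libraries (3.15, SE 0.60). Cd52 encodes a very short GPI-anchored glycopeptide of lymphocytes and monocytes that is the target of the antibody alemtuzumab. It measured 1.39 and 0.754 CPM in the WT pair, then 13.8 and 18.6 CPM in the KO26 and KO337 libraries (3.89, SE 0.62). The ratio of KO337 to KO26 was 0.936 for Ly6c2, 1.54 for Plac8 and 1.35 for Cd52. Each of the 3 lay above both WT libraries in either library labelled KO, and without KO337 their differences were 2.06, 2.78 and 3.63.

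The surface receptors and enzyme Cd72, Havcr2, Itgax and Dpep2 were above WT in both libraries and higher in KO337. Cd72, a C-type lectin with an inhibitory motif found on B cells and some macrophages, stood at 0.544 and 0.189 CPM in WT35 and WT338, 5.80 CPM in KO26 and 21.8 CPM in KO337 (log2 difference 5.16, SE 0.82). Havcr2, which encodes the inhibitory receptor TIM-3 of exhausted T cells and of phagocytes, stood at 0.594 and 1.01 CPM, 4.30 CPM and 24.4 CPM in the same order (4.18, SE 0.84). Itgax encodes CD11c, the integrin chain that pairs with Itgb2 on dendritic cells and inflammatory macrophages. It stood at 0.643 and 0.189 CPM in WT, 3.13 CPM in KO26 and 68.6 CPM in KO337 (6.35, SE 1.38). Dpep2, a membrane dipeptidase that converts leukotriene D4 to leukotriene E4, stood at 0.693 and 0.440 CPM in WT, 1.92 CPM in KO26 and 24.0 CPM in KO337 (4.49, SE 0.97). KO337 exceeded KO26 by a ratio of 3.75 for Cd72, 5.69 for Havcr2, 12.6 for Dpep2 and 21.9 for Itgax. The low WT values rest on few reads, 3 in WT338 for both Cd72 and Itgax. Leaving out KO337 lowered these differences to 3.89, 2.41, 2.83 and 1.71 for Cd72, Havcr2, Itgax and Dpep2, and all kept their sign.

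Lyz2 stood at 151 and 149 CPM in WT35 and WT338, 307 CPM in KO26 and 1840 CPM in KO337 (log2 difference 2.84, SE 0.66). By count it ranked 1179 and 1229 among genes in the WT libraries, 372 in KO26 and 31 in KO337, where it took 0.225% of all gene counts. Both WT values lie close together, and the gap between KO26 and KO337, a ratio of 5.99, exceeds that between KO26 and WT, a ratio of 2.05. Without KO337 the difference was 1.01.

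Spp1 and Gpnmb differed between KO26 and KO337 more than any other member. Spp1 encodes osteopontin, a secreted matrix and cytokine-like protein that binds integrins and CD44. It had 13 and 11 reads in WT35 and WT338, 23 in KO26 and 85613 in KO337, or 0.643, 0.692, 1.34 and 3876 CPM. It was the gene with rank 7 by count in KO337, with 0.475% of all gene counts, and ranked 13144 in KO26. Gpnmb encodes a transmembrane glycoprotein of lysosomes and melanosomes that lipid-laden phagocytes express. It stood at 9.45 and 8.99 CPM in WT, 9.75 CPM in KO26 and 1378 CPM in KO337, where it ranked 39. The fitted log2 differences of 11.49 (SE 2.81) for Spp1 and 6.23 (SE 1.63) for Gpnmb therefore rest on KO337, and without it they were 0.98 and 0.06. The ratio of KO337 to KO26 was 2903 for Spp1 and 141 for Gpnmb. Of all 15364 tested genes, 1.61% were more than 4-fold higher in KO337 than in KO26 on the log2(CPM + 0.5) scale. On the same scale KO26 exceeded the WT mean over 2-fold in 3.98% of all tested genes and in 8 members, all but Spp1, whose CPM ratio without the added 0.5 is 2.00, and Gpnmb. KO337 exceeded KO26 over 4-fold in 6 members (Lyz2, Itgax, Havcr2, Dpep2, Spp1 and Gpnmb), which is given without a test.

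**Figure D2:**
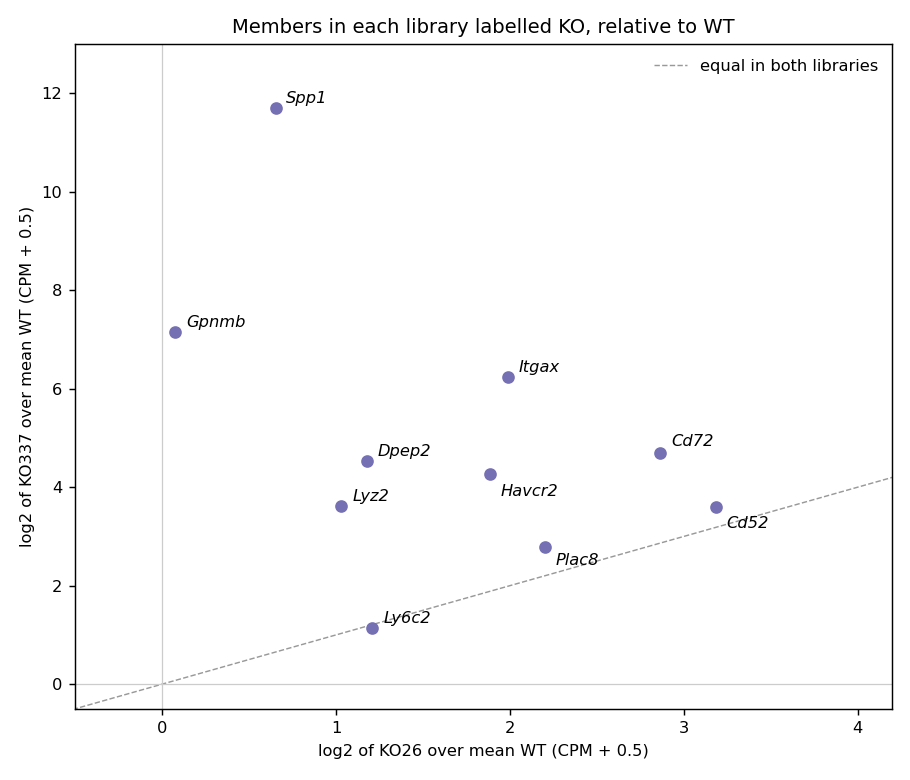
Log2 ratio of KO26 (horizontal) and of KO337 (vertical) to the mean of WT35 and WT338, with 0.5 CPM added, for the 10 members. The dashed line marks equal ratios. Ly6c2, Plac8 and Cd52 lie near the line, and Spp1 and Gpnmb lie far above it, with CPM ratios of KO26 to WT of 2.00 and 1.06.

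Because members were high together, their promoters were searched for 3 motifs of factors that act in macrophages, on both strands, in RefSeq windows (GRCm38.p6) from 250 bases before to 50 after each gene start. Windows were found for 8 of the 10 members, and Cd52 and Dpep2 were unmatched. AGAGGAA, the core bound by the myeloid factor PU.1, occurred in Cd72, Havcr2 and Ly6c2, and in 10.4% of all 32851 windows. TGANTCA, the AP-1 site, occurred in Gpnmb, Havcr2 and Itgax, and in 7.81% of all windows. TCANGTG, a loose pattern that takes in the M-box of the lysosomal factors MITF and TFEB, occurred in Lyz2 and in 14.3% of all windows. The Lyz2 match reads TCAAGTG, with A at the free base, so the match does not make it an M-box. Neither window of Spp1 and neither of Plac8 held any of these letters. A match is a description of the letters and not a binding site. The windows of Havcr2, Cd72 and Gpnmb are shown 5′ to 3′ on the gene's strand, with matches in capitals, as the member with both motifs, 1 of 2 with PU.1 letters alone (the other is Ly6c2) and 1 of 2 with AP-1 letters alone (the other is Itgax).
Havcr2 (chr11:46454681-46454980, plus strand): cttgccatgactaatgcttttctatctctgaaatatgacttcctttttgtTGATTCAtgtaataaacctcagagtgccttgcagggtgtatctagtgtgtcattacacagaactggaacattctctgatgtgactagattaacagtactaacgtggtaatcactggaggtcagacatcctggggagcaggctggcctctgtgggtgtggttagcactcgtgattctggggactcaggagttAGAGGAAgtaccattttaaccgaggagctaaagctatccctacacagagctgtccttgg
Cd72 (chr4:43454577-43454876, minus strand): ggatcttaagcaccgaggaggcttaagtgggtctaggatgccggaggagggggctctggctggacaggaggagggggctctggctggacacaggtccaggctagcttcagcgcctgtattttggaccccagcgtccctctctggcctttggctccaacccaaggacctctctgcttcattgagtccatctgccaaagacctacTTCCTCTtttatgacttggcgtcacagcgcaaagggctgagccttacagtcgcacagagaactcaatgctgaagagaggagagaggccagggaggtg
Gpnmb (chr6:49036268-49036567, plus strand): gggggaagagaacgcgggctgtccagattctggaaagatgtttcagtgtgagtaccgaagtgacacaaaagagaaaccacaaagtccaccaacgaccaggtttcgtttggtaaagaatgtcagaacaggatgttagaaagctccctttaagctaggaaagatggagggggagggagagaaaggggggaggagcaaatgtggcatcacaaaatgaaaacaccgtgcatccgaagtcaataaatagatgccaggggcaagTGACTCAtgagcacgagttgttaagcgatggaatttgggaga

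Summed RNA of resident macrophage genes also differed between these libraries, so the members were set against that sum. The 16 resident macrophage genes of a marker list summed to 601 and 738 CPM in WT35 and WT338, 801 CPM in KO26 and 1716 CPM in KO337. Per 100 CPM of that sum, Lyz2 stood at 25.2 and 20.1 CPM in WT35 and WT338, 38.3 CPM in KO26 and 107 CPM in KO337. On this scale Ly6c2, Plac8 and Cd52 were 3.60, 5.89 and 10.3 times their WT mean in KO26 and 1.57, 4.24 and 6.52 times in KO337, so the order of KO26 and KO337 turned around for Plac8 and Cd52. Cd72 was 12.5 and 21.9 times, Havcr2 4.56 and 12.1 times, and Itgax 5.91 and 60.4 times its WT mean in KO26 and KO337. Gpnmb was at 0.873 times its WT mean in KO26 and at 57.6 times in KO337. The list's own genes differed in direction, which the sum hides.

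Genes of the same cells that are not members were taken from lists of monocyte, inflammatory, scar and lipid-handling, and resident macrophage genes. These and the other marker lists were chosen with earlier results of these data known. Their calls for KO against WT are therefore not independent support for the members. In the monocyte list 6 of 15 tested genes rose in the libraries labelled KO (Ccr2, Itgal, Fcgr4, Cx3cr1, Ms4a4c and Ms4a6c), none fell and 9 did not pass, with a median log2 difference of 2.11 beside 0.01 over all tested genes, of which 1.31% rose. Ccr2, the receptor for the monocyte attractant Ccl2, measured 1.58 and 0.629 CPM in the WT pair, then 22.1 and 11.8 CPM in the KO26 and KO337 libraries (log2 3.90, SE 0.66, adjusted p = 0.0302). Itgal, the integrin chain CD11a of leukocytes, was likewise higher in KO26, at 11.6 CPM, than in KO337, at 6.75 CPM, over WT values of 0.940 and 0.943 CPM (3.27, SE 0.54, adjusted p = 0.0288). Cx3cr1, the fractalkine receptor of patrolling monocytes and macrophages, stood at 12.9 and 24.0 CPM over WT values of 2.32 and 1.07 CPM (adjusted p = 0.0348). Ms4a4c reached the minimum of the filter in 2 libraries labelled KO and in 1 other, so it was tested only because it was high in KO. Any list gene that is low outside KO could enter the test in this way. Chil3, also of classical monocytes, had too few reads to be tested. Without KO337, Ccr2 and Itgal were the monocyte genes still called, and without KO26 the count was 9. Over all lists 3 genes were still called without KO337, these and Adgre1. Without WT35, without WT338, or with WT and KO fitted apart from the other libraries, no gene of any list passed.

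The scar and lipid-handling list held no gene that passed of 15 tested, and its median was 1.10, and 0.16 without KO337. In KO26 its median ratio to WT was 0.18 on the log2(CPM + 0.5) scale and none of its tested genes was over 2-fold above WT on that scale (by CPM alone Tyrobp was at a ratio of 2.05 and Atp6v0d2 of 2.33), while in KO337 the median was 1.64. Trem2, a lipid receptor of such macrophages, stood at 3.07 and 2.77 CPM in WT, 4.59 CPM in KO26 and 66.9 CPM in KO337 (log2 3.61, SE 1.02, adjusted p = 0.085). Its signalling adaptor Tyrobp stood at 8.90 and 10.2 CPM, 19.6 CPM and 86.3 CPM (adjusted p = 0.0593), and Lipa, the lysosomal acid lipase, at 51.8 and 57.8 CPM, 64.0 CPM and 186 CPM (adjusted p = 0.106). Lgals3, which encodes galectin-3, measured 50.2 and 102 CPM, 94.7 CPM and 417 CPM (adjusted p = 0.114). Atp6v0d2, a proton pump subunit of osteoclasts and macrophages, stood at 0.198 and 0.251 CPM, 0.522 CPM and 97.6 CPM (adjusted p = 0.0685). Mmp12, the macrophage elastase, was named after its values were seen. It had 8 reads in KO26 and 8342 in KO337, or 0.464 and 378 CPM over WT values of 0.148 and 0.0629 CPM, and it failed the filter because 1 library alone reached the minimum. Without KO26, 13 of 16 genes of this list passed as higher and 1 as lower, a comparison with KO337 as the sole library labelled KO.

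**Figure D3:**
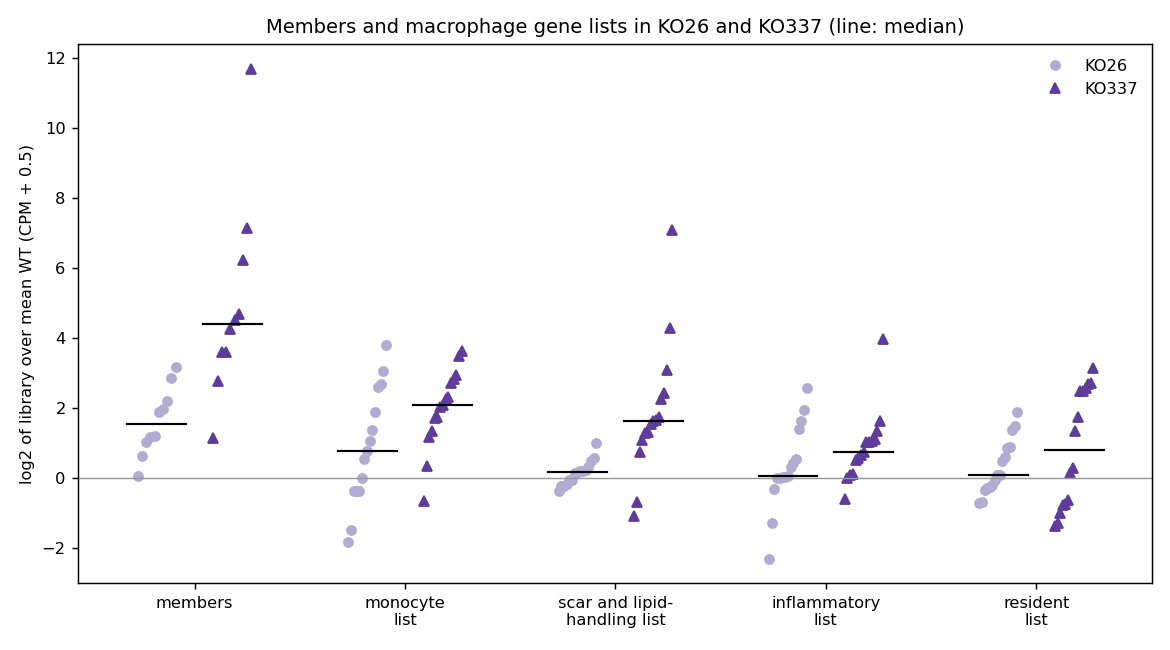
Log2 ratio of KO26 (circles) and KO337 (triangles) to the mean of WT35 and WT338, with 0.5 CPM added, for the members and the tested genes of 4 macrophage lists, each point a gene and each line a median. Members have medians of 1.55 in KO26 and 4.39 in KO337, and the scar and lipid-handling list 0.18 and 1.64.

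Among inflammatory macrophage genes 1 rose. Of 15 tested, Il1b rose, at 12.8 CPM (KO26) and 35 CPM (KO337) over WT values of 1.83 and 1.63 CPM (log2 3.78, SE 0.65, adjusted p = 0.0319), and 14 did not pass, with a median of 0.64. The groups did not overlap for 6 of the 15, all higher in the libraries labelled KO, beside 26.3% of all tested genes. Cxcl10, an interferon-induced chemokine, had 2.61 and 2.63 CPM in KO26 and KO337, with 0.247 and 0.754 CPM in WT (log2 2.41, SE 0.85, adjusted p = 0.12). Nlrp3, the inflammasome sensor, had 3.08 and 5.70 CPM, with 1.29 and 2.58 CPM in WT (adjusted p = 0.142). Tnf stood at 1.22 CPM (KO26) and 0.407 CPM (KO337) over WT values of 1.29 and 0.440 CPM, and the WT and KO values of Il6 and Ccl2 overlapped. Il12b, a subunit of interleukin 12, had no reads in WT, CTL or IBR and had 25 and 13 reads in KO26 and KO337, which is at least 6.05-fold higher than the mean level of 3 reads in a WT library. It entered the test through the libraries labelled KO alone. It was not called (adjusted p = 0.0774), and the list median is 0.64 also with Il12b at that bound.

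In the list of resident macrophage genes 2 rose, and neither is among the resident markers Lyve1, Timd4 and Folr2 named above. Those lay lower in KO26 and KO337 than in WT and were not called. Of 16 tested, Adgre1, which encodes F4/80, and Fcgr1, the high-affinity IgG receptor, rose, with adjusted p of 0.0282 and 0.0483, and 14 did not pass. Adgre1 stood at 54.2 CPM (KO26) and 110 CPM (KO337) over WT values of 20.9 and 17.1 CPM. The complement genes C1qa and C1qb stood at 66.2 and 89.0 CPM in KO26 and at 218 and 319 CPM in KO337, against at most 39.9 and 51.5 CPM in WT (adjusted p of 0.0599 and 0.0534). The groups did not overlap for 6 of 16 in the higher direction and for 5 of 16 in the lower (Lyve1, Timd4, Folr2, Cd163 and Cbr2), beside 26.3% and 26.9% of all tested genes, shares near the background from which nothing is read. Folr2 stood at 13 and 12.5 CPM over WT values of 18.8 and 24.1 CPM (adjusted p = 0.0732), and Timd4 at 5.11 and 2.22 CPM over WT values of 5.34 and 7.73 CPM (adjusted p = 0.267). With no filter, and also with DESeq2, 1 gene of this list, Folr2, was called as lower.

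Of 11 genes for ligands, receptors or partners of the members, Itgb2 rose and 10 did not pass. Itgb2, the partner chain of Itgax, stood at 22.9 CPM (KO26) and 103 CPM (KO337) over WT values of 7.82 and 8.49 CPM (log2 2.95, SE 0.57, adjusted p = 0.0404). The osteopontin receptor Cd44 stood at 60.8 and 114 CPM over WT values of 30.6 and 42.7 CPM (adjusted p = 0.0677), and the osteopontin-binding integrin chain Itgb5 at 130 and 362 CPM over WT values of 107 and 120 CPM (adjusted p = 0.105). Lgals9, the TIM-3 ligand galectin-9, stood at 46.3 and 60.9 CPM over WT values of 32.6 and 45.3 CPM (adjusted p = 0.333). Cd5, a T cell antigen that has been described as a ligand of Cd72, had 1.57 and 1.45 CPM, with 0.247 and 0 CPM in WT (log2 3.42, SE 0.91, adjusted p = 0.0695). Sema4d, another ligand of Cd72, stood at 26.4 and 34.8 CPM over WT values of 30.2 and 30.1 CPM (adjusted p = 0.96).

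Markers of other cells that express some members moved with them in part. The 10 T and NK cell genes, of which 6 were tested, summed to 2.92 and 3.40 CPM in the WT pair, then 19.4 and 13 CPM in KO26 and KO337, with Cd3e at 1.80 and 1.49 CPM beside Havcr2 and Cd52. Cd3e and Cd8a rose, with adjusted p of 0.0427 and 0.0483. All 10 genes together reached at most 3.40 CPM in any library outside KO, so these calls may be of genes tested only because they were high in KO. The 8 B and plasma cell genes summed to 3.61 and 16.0 CPM in WT and 4.93 and 39.3 CPM in KO26 and KO337, where Jchain made up 33.2 CPM. Cd79a, a chain of the B cell receptor, reached at most 0.860 CPM in any WT or KO library, and none of the 6 tested genes of this list was called. Neutrophil genes, 7 of 12 tested, summed to 6.03 and 14.5 CPM in WT and 12 and 32.0 CPM in KO26 and KO337, with S100a8 at 1.10 and 4.94 CPM and Csf3r, the G-CSF receptor, at 5.17 and 13.8 CPM (adjusted p = 0.0658). Dendritic cell genes, which share Itgax, summed to 40.3 and 43.2 CPM and to 70.8 and 73.9 CPM, and Ccr7 was called (adjusted p = 0.0489). Fibroblast genes summed to 2464 and 2203 CPM in WT, 2857 CPM in KO26 and 9695 CPM in KO337, with the collagen gene Col1a1 at 1671 CPM in KO337 (adjusted p = 0.0896), and none of 7 was called. The part of these cells in the members' levels was not tested.

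Ibrutinib against vehicle is the comparison in which the members could be tested, and none of the 10 passed in edgeR's quasi-likelihood test. Across all 15364 genes the count was 0 (0% called), with 5.52% at an unadjusted p under 0.05, and no member was among those. In a fit of CTL and IBR alone, 1308 genes and 1 of the 4 members tested there had an unadjusted p under 0.05. No gene was called in that fit, which leaves out the spread between KO26 and KO337. The members had a median log2 difference of 0.39 beside -0.03 over all genes, and 6 of 10 differences were positive beside 44.7% of all tested genes. Lyz2 stood at 105, 111 and 99.2 CPM in CTL1, CTL2 and CTL3 and at 191, 106 and 125 CPM in IBR1, IBR2 and IBR3 (log2 difference 0.42, SE 0.50, adjusted p = 0.89). With CTL and IBR fitted alone its difference was 0.45 with an SE of 0.21 (adjusted p = 0.541 in the same test). The groups overlapped, and IBR1 was the highest.

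Gpnmb was the 1 member whose CTL and IBR libraries did not overlap, as did 5.91% of all tested genes in the same direction and 7.55% in the other. It stood at 3.70, 3.17 and 5.13 CPM in CTL1, CTL2 and CTL3 and at 7.40, 5.46 and 9.54 CPM in IBR1, IBR2 and IBR3. The log2 difference was 0.89 with an SE of 1.22 (adjusted p = 0.903). That SE takes in the spread between KO26 and KO337, and in a fit of CTL and IBR alone the difference was 0.92 with an SE of 0.28 (adjusted p = 0.513). In neither fit was it called.

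The other 8 members lay near the limit of detection in CTL and IBR. Cd52 stood at 0.455, 1.30 and 0.604 CPM in CTL and 2.41, 1.03 and 0.611 CPM in IBR (log2 difference 0.81, SE 0.55, adjusted p = 0.824). Dpep2 stood at 0.797, 0.721 and 0.543 CPM in CTL and 1.11, 0.804 and 0.734 CPM in IBR (0.36, SE 0.84, adjusted p = 0.945). In the fit of CTL and IBR alone the SE was 0.59 for Cd52 and 0.39 for Dpep2, and neither was called. Both overlapped between groups, with IBR1 the highest. Plac8 ran from 0.181 to 0.937 CPM over these 6 libraries, Cd72 from 0.171 to 0.793 CPM and Spp1 from 0.287 to 1.87 CPM, each highest in CTL2. Itgax had 2, 2 and 1 reads in CTL and 10, 1 and 2 in IBR, Havcr2 4, 2 and 2 reads in CTL and 9, 1 and 3 in IBR, and Ly6c2 at most 4 reads in any of them, so a difference in these 3 genes was not detectable at this depth. In CTL and IBR alone 4 of the 10 members pass the filter (Lyz2, Cd52, Dpep2 and Gpnmb). A p that misses the threshold does not show that vehicle and drug act alike.

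**Figure D4:**
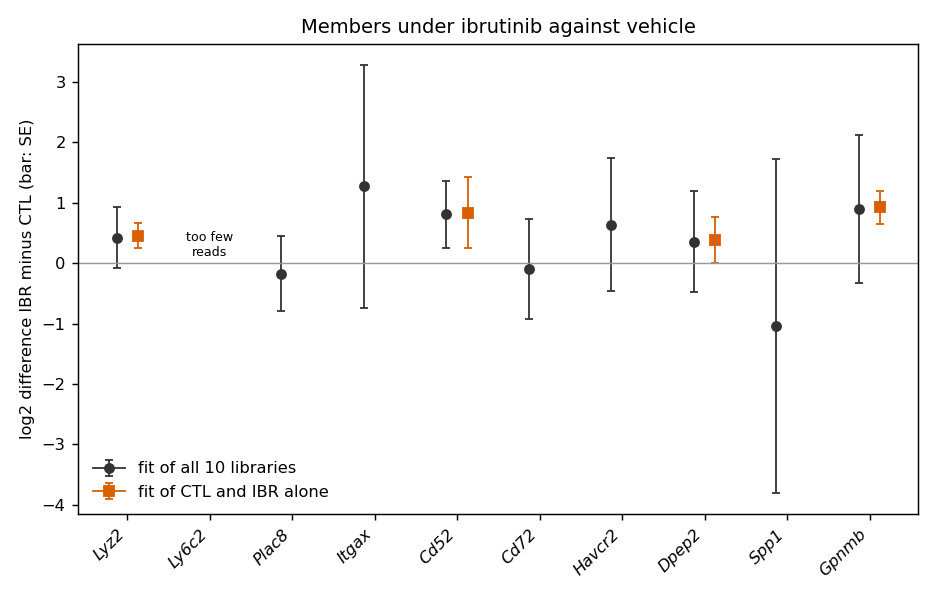
Log2 difference of IBR minus CTL (vertical) with its standard error for each member (horizontal), from the fit of all 10 libraries (circles) and, for the 4 members that pass the filter there, from CTL and IBR alone (squares). Ly6c2 has too few reads and is left out. Gpnmb is at 0.89 and 0.92 with an SE of 1.22 in the first fit and 0.28 in the second.

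Single libraries set the sign of 6 low members in this comparison. Without CTL2 the differences of Ly6c2, Plac8, Cd72 and Spp1 turned positive, and CTL2 also had the highest neutrophil sum of the 3 CTL libraries, 30.4 CPM against 8.08 and 5.98 CPM. Without IBR1 those of Itgax and Havcr2 turned negative, and without IBR2 that of Cd72 turned positive. IBR1 had the highest resident macrophage sum, 613 CPM against 441 and 476 CPM in IBR2 and IBR3 and 300 to 411 CPM in CTL, and the highest fibroblast sum, 2141 CPM. All 16 resident macrophage genes had positive differences under ibrutinib, beside 44.7% of all tested genes. For 8 of them IBR lay above CTL without overlap, beside 5.91% of all tested genes. The fibroblast list had 7 of 7 positive and 5 without overlap in that direction. No gene of either list was called (resident list: smallest unadjusted p = 0.00206, smallest adjusted p = 0.823 in edgeR's quasi-likelihood test). The part of these markers in the members' values was not tested.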

How the data were processed

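Poly(A) RNA of left atria was made into 10 directional libraries, per the labels' protocols. The deposited values are raw HTSeq counts of reads per gene, 1 file per library; STAR, HTSeq, edgeR and build mm9 are named in the submitters' processing notes, with no version, annotation or filter stated in the sources used here. Per the file names strand was ignored, so reads in bases shared with an overlapping gene (Crybg2 at Cd52, Tesk1 at Cd72, Dus2 at Dpep2) cannot be assigned by strand. Ambiguous reads, 3.14% to 3.99% of records, were given to no gene, so such reads may be lost to the member. Of 37583 gene identifiers, 87.4% matched a symbol; the 5 rows of unassigned reads stayed out (reads in no feature were 13.5% to 19.9% of records, those without a unique position 11.8% to 27.4%). Total counts on genes were 14907331 to 19960947 per library.

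Groups came from the sample titles. Genes were kept by filterByExpr over the 4 groups (minimum count 10, minimum total 15), libraries scaled by TMM (factors 0.870 to 1.228), and all libraries fitted together by edgeR 4.0.16 (R 4.3.3), quasi-likelihood with robust shrinkage, 1 mean per group and 6 residual degrees of freedom. The contrasts were IBR minus CTL and KO minus WT, p-values were adjusted by Benjamini-Hochberg over 15364 genes, and called means under 0.05. An SE is the log2 difference over the square root of F. The biological coefficient of variation was 0.221, and 0.167 in CTL and IBR and 0.291 in WT and KO alone, so the shared spread is below that of WT and KO. In simulated counts of 15364 genes the fit found, for the drug contrast, 48 of 100 genes changed 2-fold and 89 of 100 changed 4-fold, and for the genotype contrast 29 and 68. Coding sequences were aligned with Biopython 1.88; exon lengths are GENCODE vM21 (another build than mm9).

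The members and lists were chosen with earlier results of these data known. Named are all members, the 4 genes of each list with the smallest p in KO against WT (kept for the monocyte, macrophage, ligand and pan-leukocyte lists; in the lists of other cells not all of these are named), all genes of a count of 5 or fewer, and fixed marker genes (Ccr2, Csf1r, Adgre1, Ptprc, Il1b, Trem2, Lgals3, S100a8, Ly6c1, Lyz1), plus others named for comparison after their values were seen. Alternatives were other scaling, no filter, DESeq2 1.42.0, fits of the compared groups alone, the replicate number as a block, and leaving out each library. A few list genes are not reported here by name and stay in all counts and sums.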

Additional observations from a re-analysis of the deposited data

How the results depend on the processing

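The drug contrast gave no call of a member or list gene under any alternative run. With no filter and with DESeq2, 2 genes were called for IBR against CTL, no member among them. For KO against WT the 339 genes called became 1146 with no filter, 1830 with DESeq2 and 0 with only WT and KO fitted, and 14 to 3933 with 1 library left out (14 without WT35, 21 without WT338, 55 without KO337, 3933 without KO26). The 18 list genes called became 15 with DESeq2 size factors (lost were Fcgr1, Ccr7 and Coro1a, each at adjusted p = 0.0504), 12 with upper-quartile factors (these 3 with Cd8a, Cd48 and Ms4a6c, at 0.051 to 0.0538), 27 with no filter (where Itgb2 and Lcp1 were lost, at 0.0765 and 0.0826), 52 with DESeq2, 0 with only WT and KO fitted, and 0 to 71 with 1 library left out. The members' median difference ran from 2.24 to 5.14. The cause was not tested. With 1 library left in a group, it is assumed to vary like the other groups.

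Leaving out 1 library changed the sign of IBR minus CTL for Ly6c2 (-1.87 to 0.41), Plac8 (-0.56 to 0.87), Cd72 (-0.46 to 0.93), Spp1 (-1.45 to 0.071), Itgax (-0.21 to 1.75) and Havcr2 (-0.46 to 1.12), and of KO minus WT for Mzb1 (-1.47 to 0.083) and Cpa3 (-0.17 to 1.16), none of them called.

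CTL and IBR libraries share numbers, with correlations of their deviations of 0.016, 0.162 and 0.032 for equal numbers, so the numbers were not taken to pair them, and not every library correlated best with its own number. With the replicate block 0 genes were called, and Gpnmb differed by 0.92 (adjusted p = 0.167). WT and KO share no number, so no block was fitted there. Counts of 10 or fewer in each CTL and IBR library limit Ly6c2, Itgax and Havcr2.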

Other observations

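The non-member genes nearest in pattern to Lyz2, Cd72 and Gpnmb were found by the root-mean-square difference of log2(CPM + 0.5), each gene centred on its own mean, over the 10 libraries, which share the gap between KO26 and KO337. Nearest to Lyz2 were Itgb2 (0.15), Tyrobp (0.17) and Acp5 (0.22), the last encoding tartrate-resistant acid phosphatase, at 3.19 (KO26) and 26.8 CPM (KO337) against 1.19 CPM in each WT library. Nearest to Cd72 were Glipr1 (0.475), Stap1 (0.49) and Otulinl (0.50). Stap1, an adaptor of blood cells, stood at 4.30 CPM (KO26) and 12.8 CPM (KO337) over WT values of 1.04 and 0.880 CPM. Nearest to Gpnmb were Atp6v0d2 (0.46) and, at a larger distance, the fibrillar collagen gene Col11a1 (0.82) and the TGF-beta binding protein gene Ltbp2 (0.83). Col11a1 stood at 0.116 (KO26) and 78.4 CPM (KO337). Among the members themselves the closest pair was Lyz2 and Dpep2 (0.33) and the farthest Ly6c2 and Spp1 (3.14).

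Pan-leukocyte genes were 8 of 8 above WT in both libraries labelled KO, beside 26.3% of all tested genes. Of the 8, 5 were called as higher (Ptprc, Lcp1, Rac2, Cd48 and Coro1a), beside 1.31% of all tested genes. Ptprc, which encodes CD45, measured 13.8 and 13.5 CPM in the WT pair, then 49.0 and 121 CPM in the KO26 and KO337 libraries (adjusted p = 0.0288). Csf1r, the receptor for the macrophage growth factor, measured 69.9 and 74.3 CPM in the WT pair, then 103 and 184 CPM in the KO26 and KO337 libraries (adjusted p = 0.107). None of the 5 was called without KO337 (Ptprc at adjusted p = 0.0544), without WT35 or without WT338. Mast cell genes summed to 10.2 and 11.4 CPM in WT and 11.9 and 16.9 CPM in KO26 and KO337, and none of 5 tested was called.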
